A study of Homo sapiens with 6 samples.

Results

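Collagens, laminins and integrins were taken as the protein-coding genes named COL, number, A and number; LAMA, LAMB or LAMC with a digit; and ITGA or ITGB with a number, plus ITGAV and ITGA2B. The rule gave 77 of the 58302 listed genes: 44 collagen chains, 12 laminin chains, 13 integrin alpha chains and 8 integrin beta chains. They were measured by RNA sequencing in HCCLM3 cells, an established human hepatocellular carcinoma line with high metastatic capacity. The cells received by transfection an ASO (antisense oligonucleotide, a synthetic nucleic acid strand that pairs with a chosen RNA), directed either at SCARNA13, a small Cajal body-specific RNA, or at no stated target, and the question was how expression differs between them. The Control ASO and the SCARNA13 ASO group held 3 libraries each of this line, with no genotype, dose or time in the labels. Levels are FPKM, read numbers scaled for gene length and by a factor per library. Comparisons between genes also carry the shift of replicate 3 with GC content that is given below. Genes averaging 1 FPKM or more across the 6 libraries were counted as expressed, and 33 of the 77 were. In bulk RNA, fewer cells of a type and less RNA per cell cannot be told apart.

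Collagens are trimers of chains wound into a triple helix. Type IV forms the network of basement membranes, types I, III and V form fibrils, and type XVIII is a heparan sulphate proteoglycan of basement membranes. Laminins join 1 alpha, 1 beta and 1 gamma chain into a cross-shaped molecule that nucleates the basement membrane. Integrins are the receptors: an alpha and a beta chain together bind matrix outside the cell and link it to actin or, through ITGB4, to keratin. In liver, hepatocytes border a sparse matrix without a continuous basement membrane, and matrix and integrin use change in carcinoma.

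The libraries held between 20457474 and 25173559 assigned reads. The targeted SCARNA13 rested on 6, 5 and 2 reads in controls and 2, 3 and 2 reads after SCARNA13 ASO, so its lowering is hardly resolved here. Both replicate 3 libraries stood apart: log2 levels correlated at 0.900 to 0.939 with any library of another number, and at 0.980 to 0.994 among the other library pairs. Of 13 hepatocyte and liver cancer markers, 3 reached 1 FPKM (KRT8, KRT18 and SERPINA1), while ALB, APOA2, APOB and GPC3 were at 0 reads and AFP averaged 0.113 FPKM. Of the fibroblast markers 3 of 10 reached 1 FPKM (THY1, ACTA2 and RGS5), with summed levels of 27.2 to 71.9 FPKM in controls and 24.1 to 43.3 after SCARNA13 ASO, while DCN, LUM and PDGFRA were below 0.1 FPKM and DPT was at 0. None of 8 endothelial markers reached 1 FPKM (summed 0.172 to 0.537 against 0.148 to 0.494 FPKM; KDR, TEK and ERG at 0). Of 10 leucocyte and platelet markers, only CD14 did (summed 2.87 to 6.90 against 2.25 to 3.27 FPKM), with CD3E, MS4A1, LYZ, PF4 and GP9 among those at 0. The part of such markers in the results was not tested.

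Stretches of DNA just before the start sites are shown first, for 3 genes that passed a test below and for LAMB1. LAMB1 is a beta chain that can pair with LAMC1. ITGA3 has no entry in the promoter table. RefSeq (GRCh38.p14) promoter entries matched 56 of the 77 genes, and the 250 bases before each start were searched on both strands. The motifs were a GC box, GGGCGG, whose matches can overlap one another, and a TATA box, read as TATAAA. Also searched were the AP-1 site TGACTCA and the amino acid response element, spelled TGATGNAA. LAMC1 and LAMB1 encode the gamma and beta chains of the classical laminins, LAMB3 the beta chain of epithelial laminin-332, and COL18A1 the basement membrane collagen XVIII. Only bases outside all GENCODE 29 exons are printed, and capitals mark the motif matches, all of them GC boxes. The stretches lie at chr1:183023170-183023419 on the plus strand (LAMC1), chr7:108003256-108003411 on the minus strand (LAMB1), chr1:209652467-209652675 on the minus strand (LAMB3) and chr21:45404915-45405136 on the plus strand (COL18A1).
LAMC1: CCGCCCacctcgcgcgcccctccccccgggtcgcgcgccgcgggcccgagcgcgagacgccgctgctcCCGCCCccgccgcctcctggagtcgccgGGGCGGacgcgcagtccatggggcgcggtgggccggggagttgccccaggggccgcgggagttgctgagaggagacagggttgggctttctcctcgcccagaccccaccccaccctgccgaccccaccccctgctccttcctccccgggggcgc
LAMB1: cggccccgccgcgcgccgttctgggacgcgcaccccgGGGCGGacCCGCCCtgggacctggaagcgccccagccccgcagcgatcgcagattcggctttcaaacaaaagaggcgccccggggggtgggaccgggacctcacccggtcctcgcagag
LAMB3: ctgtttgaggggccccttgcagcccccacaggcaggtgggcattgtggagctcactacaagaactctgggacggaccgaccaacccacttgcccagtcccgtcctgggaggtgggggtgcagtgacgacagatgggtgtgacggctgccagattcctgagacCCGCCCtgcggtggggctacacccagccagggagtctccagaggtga
COL18A1: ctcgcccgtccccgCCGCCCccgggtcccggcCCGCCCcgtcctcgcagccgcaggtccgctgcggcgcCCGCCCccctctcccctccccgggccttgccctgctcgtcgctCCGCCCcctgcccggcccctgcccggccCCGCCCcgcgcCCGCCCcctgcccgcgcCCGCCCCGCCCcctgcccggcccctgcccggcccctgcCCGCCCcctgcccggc
These stretches held 3 GC boxes for LAMC1, 2 for LAMB1, 1 for LAMB3 and 9 for COL18A1, and their GC content was 79.6%, 75.0%, 64.6% and 88.7%.

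Across the family a GC box was found before 17 of the 24 expressed genes with an entry (70.8%) and before 13 of the 32 genes below 1 FPKM (40.6%). Over all 35116 promoter entries, non-coding genes included, the share was 42.6%. The median GC content of the 250 bases was 70.6% for expressed genes, 61.4% for those below 1 FPKM and 58.0% over all entries. A TATA box preceded 3 of the 24 expressed genes (12.5%) against 10.7% of all entries, the amino acid response element 1 of 24 (4.17%) against 3.14%, and the AP-1 letters 0 of 24 against 4.20%. No share was taken over the promoters of expressed genes in general. No test was made of these shares, and a match is a description of the letters only.

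HCCLM3 cells expressed 33 of these 77 genes, against 10120 of all 58302 listed genes, non-coding ones included. The 33 expressed genes were 15 collagens, 8 laminins, 6 integrin alpha chains and 4 integrin beta chains. The gene just inside the limit was COL9A2, a cartilage collagen chain, at 1.02 FPKM, and just outside was LAMA4, a laminin alpha chain of vessels and muscle, at 0.650 FPKM. Of the 44 genes below 1 FPKM, 14 lay between 0.1 and 1 FPKM and 30 below 0.1. The 7 genes COL6A5, COL14A1, COL19A1, COL22A1, COL23A1, COL25A1 and ITGA8 had 0 reads in every library, which allows up to 0.00221 to 0.00592 FPKM over the 6 libraries, depending on gene length (3 reads; counting error only). Expressed genes rested on between 35 reads (ITGAV) and 50819 reads (ITGA3) in a library.

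**Figure D1:**
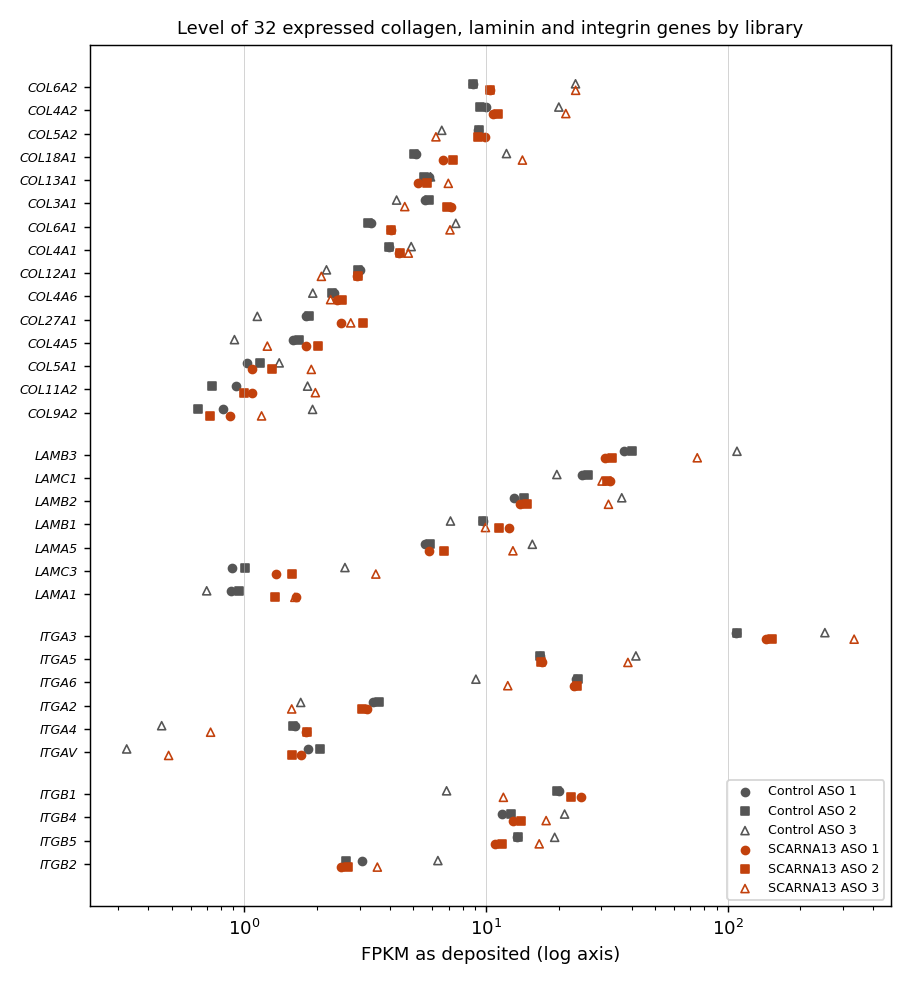
FPKM as deposited (log axis) of 32 of the 33 expressed genes in each library, grouped into collagens, laminins, integrin alpha and integrin beta chains and ordered by mean level. Circles, squares and open triangles are replicates 1, 2 and 3; ITGA3 lies above 100 FPKM in every library, and the triangles lie apart from the other points for most genes.

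Among collagens, COL6A2, a chain of the beaded microfibrils of type VI, averaged 14.2 FPKM over the 6 libraries. COL4A2 and COL4A1, the ubiquitous chains of the type IV network, averaged 13.8 and 4.39 FPKM. COL4A2 exceeded COL6A2 in replicates 1 and 2 of both groups and was lower in replicate 3. The fibrillar chains COL5A2 and COL3A1 averaged 8.42 and 5.71 FPKM, COL18A1 8.39 FPKM, and COL13A1, a transmembrane collagen, 5.86 FPKM. Chains that build one trimer were not equally abundant. COL1A1, a chain of the main fibril collagen type I, averaged 0.379 FPKM, and its partner COL1A2 0.00416 FPKM. COL6A3, the partner of COL6A1 (4.88 FPKM) and COL6A2, averaged 0.297 FPKM. The type IV chains together made up 27.5% ± 0.499 (SD, n = 3) of the summed collagen level in controls and 27.2% ± 1.04 after SCARNA13 ASO.

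The 6 type IV genes sit in head-to-head pairs, and each pair was on or off together. On chromosome 13 the RefSeq starts of COL4A1 and COL4A2 are separated by 126 bases. COL4A2 nevertheless exceeded COL4A1 in all 6 libraries, by 2.51, 2.39 and 4.08 times in controls and 2.46, 2.53 and 4.48 times after SCARNA13 ASO, the highest ratios being those of replicate 3. On the X chromosome, COL4A6 and COL4A5, with 379 bases between their starts, averaged 2.30 and 1.54 FPKM. COL4A4 and COL4A3 on chromosome 2, with 418 bases between starts, were both near 0, at 0.0204 and 0.00364 FPKM. Among other neighbours, COL3A1 and COL5A2 on chromosome 2, 19.1 kb apart, were both expressed, while LAMB1 (10.05 FPKM) lies 20.3 kb from LAMB4 (0.0130 FPKM) on chromosome 7, and ITGA3 (183 FPKM) lies 92.8 kb from COL1A1 on chromosome 17.

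By mean level LAMB3 led the laminin chains, at 54.3 FPKM. Next came LAMC1 at 27.6 FPKM and LAMB2, a beta chain of mature basement membranes, at 20.8 FPKM, then LAMB1 at 10.05 and LAMA5, the alpha chain of many epithelial laminins, at 8.73 FPKM. This order did not hold in every library: LAMC1 exceeded LAMB3 in SCARNA13 ASO replicate 1, and LAMB2 exceeded LAMC1 and LAMA5 exceeded LAMB1 in both replicate 3 libraries. LAMA3, the alpha chain that joins LAMB3 in laminin-332, averaged 0.212 FPKM, and LAMB3 exceeded it by 104 to 1208 times over the libraries. Of the alpha chains, LAMA5 made up 80.6% ± 8.40 of the summed level in controls and 76.2% ± 7.27 after SCARNA13 ASO (SD, n = 3). LAMA2, the muscle alpha chain, averaged 0.0410 FPKM.

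Integrins were dominated by ITGA3, the alpha chain of the laminin receptor alpha3beta1, at 183 FPKM. It made up 73.6% ± 7.42 of the summed alpha chain level in controls and 79.1% ± 5.90 after SCARNA13 ASO (SD, n = 3). ITGA5, which with ITGB1 binds fibronectin, followed at 24.6 FPKM and ITGA6, a further laminin receptor chain, at 19.3 FPKM. Their order is not settled: ITGA6 exceeded ITGA5 in replicates 1 and 2 of both groups and was lower in replicate 3. The collagen receptor chain ITGA2 averaged 2.76 FPKM, ITGA4, which binds fibronectin and VCAM1, 1.33 FPKM, and ITGAV, the RGD-binding chain, 1.33 FPKM. The beta chains ITGB1 (17.6 FPKM), the shared partner of most alpha chains, ITGB4 (15.0), the partner of ITGA6 in hemidesmosomes, and ITGB5 (14.2), a partner of ITGAV, overlapped over the libraries. ITGB2, the leucocyte beta chain, averaged 3.46 FPKM, from a gene whose exons share 303 bases with the antisense ITGB2-AS1 (2.44 FPKM); without strand, reads there cannot be assigned to either gene. ITGB3, ITGB6, ITGB7 and ITGB8 and the alpha chains ITGA1, ITGA2B, ITGA7, ITGA8, ITGA9, ITGA10 and ITGA11 were each below 0.5 FPKM on average.

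In the replicate 3 libraries the level of these genes shifted with their GC content. ITGA3 (61.3% GC) stood 2.32 times higher in Control ASO replicate 3 than in the mean of replicates 1 and 2, LAMB3 (58.9% GC) 2.81 times and COL6A2 (66.4% GC) 2.66 times. In contrast, ITGB1 (40.0% GC) stood at 0.346 and ITGAV (38.3% GC) at 0.167 of that mean. The sizes depend on the library scaling of the deposited values: per total assigned reads the ratios were 1.21 for ITGA3, 1.47 for LAMB3, 1.39 for COL6A2, 0.181 for ITGB1 and 0.0873 for ITGAV. Over the 33 genes the log2 shift of replicate 3 had a Pearson correlation with GC content of 0.88 in controls and 0.87 after SCARNA13 ASO, and over 10104 tested genes of 0.79 and 0.80. Genes are not independent replicates and share these libraries, so the values are descriptive. Sums and shares above carry this shift: ITGB1 was 40.8% and 39.8% of the summed beta chains in Control ASO replicates 1 and 2 and 12.7% in replicate 3.

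**Figure D2:**
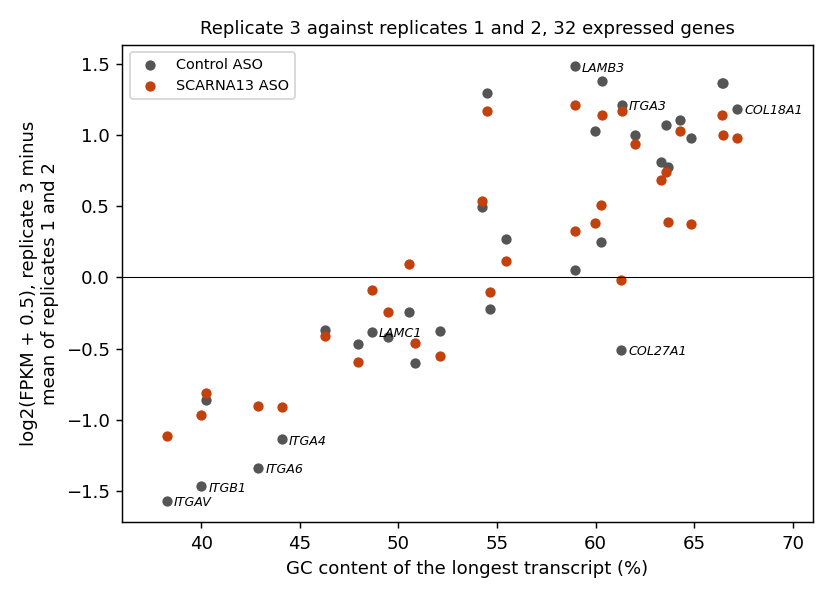
Shift of replicate 3, as log2(FPKM + 0.5) minus the mean of replicates 1 and 2 of the same group, against the GC content of the longest transcript for 32 of the 33 expressed genes. The shift runs from -1.57 for ITGAV to 1.48 for LAMB3 in controls (labelled points), and COL27A1 lies below other genes of similar GC content.

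Few of these genes passed a test between SCARNA13 ASO and Control ASO, and most estimates lay above 0. In limma-trend on log2(FPKM + 0.5) with group as the only term, 0 of the 33 expressed genes passed an adjusted p of 0.05 over all genes tested, as did 0 of 10120 genes (0.0%). There, COL27A1 and LAMA1 (2 of the 33) had an unadjusted limma p under 0.05, against 1.71% of all genes. In limma with the replicate number as a block and values corrected for GC content, ITGA3, COL18A1 and LAMC1 rose and LAMB3 fell. These 4 of 33 compare with 526 of 10104 genes (5.21%) called, 309 higher (3.06%) and 217 lower (2.15%). In that fit 15 of the 33 had an unadjusted p under 0.05 (13 higher, 2 lower), against 31.3% of all genes (15.8% higher, 15.5% lower). The block without GC correction called none of the 33 (lowest limma adjusted p = 0.0814, for ITGA3) and 0 of 10120 genes, with 11 of the 33 and 25.7% of all genes at an unadjusted p under 0.05. All 4 calls were lost when replicate 1 or replicate 2 of both groups was left out, where 19 and 7 genes were called in all; without replicate 3 they were joined by COL27A1 (5 of 33, against 6.7% of all genes).

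In the corrected and blocked fit 26 of the 33 log2 fold changes lay above 0, against 50.1% of all genes tested. The median was 0.17 on the log2 scale, against 0.00026 over all genes. By family the medians were 0.22 for collagens, 0.25 for laminins, 0.074 for integrin alpha and -0.047 for integrin beta chains. On deposited values with group only the median was 0.13, against -0.025 for all genes, with 23 of 33 above 0, against 45.5% of all genes. After GC correction 21 of the 33 were higher in all 3 pairs (28.9% of all genes) and 4 lower in all 3 (28.3%). On deposited FPKM, 4 genes had every SCARNA13 ASO library above every control (LAMC1, LAMB1, LAMA1 and COL27A1) against 4.0% of all genes tested, and 0 had every one below, against 4.44%. LAMA1, and below LAMA5, COL6A1 and COL4A1, lie outside the rule for naming genes and were picked out after their values were seen.

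**Figure D3:**
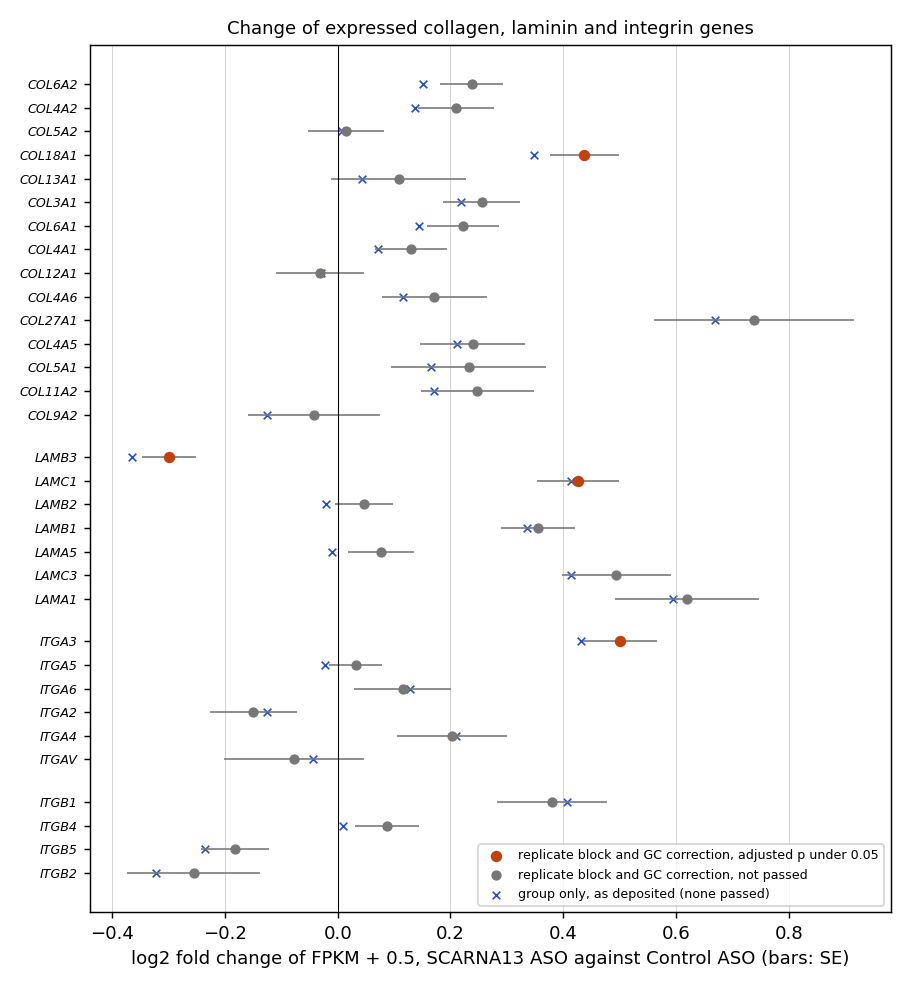
Log2 fold change of FPKM + 0.5, SCARNA13 ASO against Control ASO, for 32 of the 33 expressed genes. Filled circles with SE bars are limma estimates with replicate block and GC correction (orange where adjusted p is under 0.05: COL18A1, LAMB3, LAMC1 and ITGA3); crosses are estimates with group only on deposited values, where none passed.

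The receptor chain ITGA3 (chromosome 17 at 50055968 to 50090481) rose. It measured 108, 110 and 252 FPKM in Control ASO replicates 1, 2 and 3 and 144, 152 and 333 FPKM after SCARNA13 ASO. Each treated library exceeded the control of its number, but the groups overlapped because both replicate 3 libraries were high. With block and GC correction the change was 1.41-fold, a log2 fold change of 0.50 ± 0.065 (SE, n = 3; limma adjusted p = 0.037), with pair differences of 0.43, 0.43 and 0.64. It was 0.43 (limma adjusted p = 0.0337) without replicate 3. With group only on deposited values it was 0.43 ± 0.50 (limma adjusted p = 1.0), where leaving out SCARNA13 ASO replicate 3 gave 0.042 and leaving out Control ASO replicate 3 gave 0.83. Over all settings the adjusted p of ITGA3 ran from 0.0337 to 1.0.

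Its partner ITGB1 (chromosome 10) measured 20.02, 19.7 and 6.86 FPKM in controls and 24.7, 22.4 and 11.8 FPKM after SCARNA13 ASO. Every treated library was again higher than the control of its number, with a log2 fold change of 0.38 ± 0.098 that did not pass (SE, n = 3; limma adjusted p = 0.079). ITGA5 stood at 16.7, 16.7 and 41.7 FPKM against 17.0, 16.9 and 38.6 FPKM, a log2 fold change of 0.032 ± 0.047. ITGA6 stood at 23.5, 23.9 and 9.07 FPKM against 23.1, 23.8 and 12.3 FPKM (0.12 ± 0.086), and its hemidesmosome partner ITGB4 at 11.6, 12.7 and 21.1 FPKM against 13.0, 13.9 and 17.7 FPKM (0.088 ± 0.057). For these chains the groups overlapped and no change was called. ITGB5 was lower in all 3 pairs, at 13.4, 13.6 and 19.2 FPKM against 10.9, 11.6 and 16.6 FPKM, without passing (-0.18 ± 0.061; limma adjusted p = 0.122). ITGB2 stood at 3.07, 2.62 and 6.32 FPKM in controls and 2.51, 2.69 and 3.55 FPKM after SCARNA13 ASO (-0.26 ± 0.12; limma adjusted p = 0.213). Without replicate 3 the same fit gave 0.25 for ITGB1, 0.0022 for ITGA6 and -0.12 for ITGB2, none of which passed. The remaining alpha chains ITGA2, ITGA4 and ITGAV lay between -0.15 and 0.20 and did not pass.

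Laminin chains moved in both directions. LAMC1 (chromosome 1 at 183023460 to 183145592) measured 25.1, 26.3 and 19.6 FPKM in controls and 32.4, 31.7 and 30.2 FPKM after SCARNA13 ASO. All treated libraries lay above all controls; the exact permutation p (two-sided) was 0.1, below which 3 against 3 libraries cannot go. It rose 1.34-fold, a log2 fold change of 0.43 ± 0.072 with block and GC correction (SE, n = 3; limma adjusted p = 0.0457). It was 0.34 (limma adjusted p = 0.0395) without replicate 3. Over all settings its log2 value ran from 0.29 to 0.52 and its adjusted p from 0.0395 to 1.0.

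LAMB1 (chromosome 7 at 107923799 to 108003255), a beta chain that can pair with LAMC1, measured 9.70, 9.73 and 7.12 FPKM against 12.5, 11.3 and 9.94 FPKM. These groups did not overlap either, and the log2 fold change of 0.36 ± 0.066 missed the threshold (SE, n = 3; limma adjusted p = 0.0508). LAMA1, the alpha chain of early embryonic laminin, stood at 0.882, 0.954 and 0.698 FPKM against 1.63, 1.34 and 1.62 FPKM, from 145 to 703 reads a library. Its log2 fold change of 0.62 ± 0.13 did not pass (SE, n = 3; limma adjusted p = 0.0585). The gamma chain LAMC3 stood at 0.888, 1.01 and 2.61 FPKM against 1.35, 1.58 and 3.497 FPKM, with replicate 3 high in both groups (0.49 ± 0.097; limma adjusted p = 0.0542).

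LAMB3 (chromosome 1 at 209614870 to 209652466) fell. It measured 37.4, 40.3 and 109 FPKM in controls and 30.9, 33.1 and 74.8 FPKM after SCARNA13 ASO, lower in each pair while the groups overlapped. With block and GC correction it fell by 18.7%, a log2 fold change of -0.30 ± 0.048 (SE, n = 3; limma adjusted p = 0.0435). It was -0.28 (limma adjusted p = 0.0416) without replicate 3. On deposited values with group only it was -0.36 ± 0.55 and turned to 0.13 without Control ASO replicate 3. Its adjusted p over all settings ran from 0.0416 to 1.0. The ratio of LAMC1 to LAMB3 within a library does not depend on library scaling. It was 0.671, 0.654 and 0.180 in controls and 1.05, 0.959 and 0.404 after SCARNA13 ASO, higher in each pair. LAMC1 was higher and LAMB3 lower in each of these pairs, so the direction of the ratio follows and adds no support. The ratio also carries the GC shift of replicate 3, with LAMC1 at 48.65% GC and LAMB3 at 58.9%.

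LAMB2, a beta chain more abundant than LAMB1 in every library, and LAMA5 showed no call. LAMB2 stood at 13.0, 14.4 and 36.4 FPKM against 13.9, 14.7 and 32.1 FPKM (0.046 ± 0.052), and LAMA5 at 5.60, 5.83 and 15.5 FPKM against 5.78, 6.70 and 12.9 FPKM (0.077 ± 0.058). LAMA5 shares 244 exonic bases with ADRM1 on the opposite strand, a proteasome gene at 261 FPKM on average.

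Of the collagens, COL18A1 (chromosome 21 at 45405137 to 45513720) rose. It measured 5.12, 5.03 and 12.1 FPKM in controls and 6.63, 7.28 and 14.1 FPKM after SCARNA13 ASO, higher in each pair with overlapping groups. The change was 1.35-fold with block and GC correction. The log2 fold change was 0.44 ± 0.061 (SE, n = 3, limma adjusted p = 0.038), and 0.40 (limma adjusted p = 0.04) without replicate 3. With group only it was 0.35 ± 0.44, and it ran from 0.024 to 0.74 when 1 library was left out, at the lowest without SCARNA13 ASO replicate 3 and at the highest without Control ASO replicate 3. Its adjusted p over all settings ran from 0.038 to 1.0. Exons of SLC19A1, a folate carrier gene on the opposite strand, cover 16.4% of its exonic bases, and reads there cannot be assigned without strand; SLC19A1 itself stood at -0.22 ± 0.071 (limma adjusted p = 0.117).

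COL27A1, a fibrillar collagen of cartilage (chromosome 9), had the highest estimate of the 33 genes. It measured 1.79, 1.85 and 1.13 FPKM in controls and 2.51, 3.10 and 2.75 FPKM after SCARNA13 ASO, and the groups did not overlap (exact permutation p = 0.1). Its log2 fold change of 0.74 ± 0.18 did not pass (SE, n = 3; limma adjusted p = 0.0711), with pair differences of 0.41, 0.57 and 1.24, and replicate 3 was the largest. Without replicate 3 it was 0.49 (limma adjusted p = 0.0498). COL3A1 stood at 5.58, 5.81 and 4.26 FPKM against 7.13, 6.88 and 4.61 FPKM (0.26 ± 0.069; limma adjusted p = 0.0853).

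The type VI chains COL6A2 and COL6A1 gave close estimates, 0.24 ± 0.056 and 0.22 ± 0.064, and neither passed (limma adjusted p = 0.0695 and 0.0951). COL6A2 measured 8.80, 8.81 and 23.4 FPKM against 10.3, 10.4 and 23.5 FPKM: higher in replicates 1 and 2 and nearly level in replicate 3 on the deposited scale. COL4A2 measured 10.01, 9.47 and 19.998 FPKM against 10.7, 11.2 and 21.4 FPKM (0.21 ± 0.067, limma adjusted p = 0.115), and its neighbour COL4A1 stood at 0.13 ± 0.064. COL5A2, at 9.23, 9.31 and 6.55 FPKM against 9.92, 9.29 and 6.20 FPKM, had an estimate near 0 (0.015 ± 0.068). The other 7 collagens (COL13A1, COL12A1, COL4A6, COL4A5, COL5A1, COL11A2 and COL9A2) lay between -0.042 and 0.25 without passing.

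**Figure D4:**
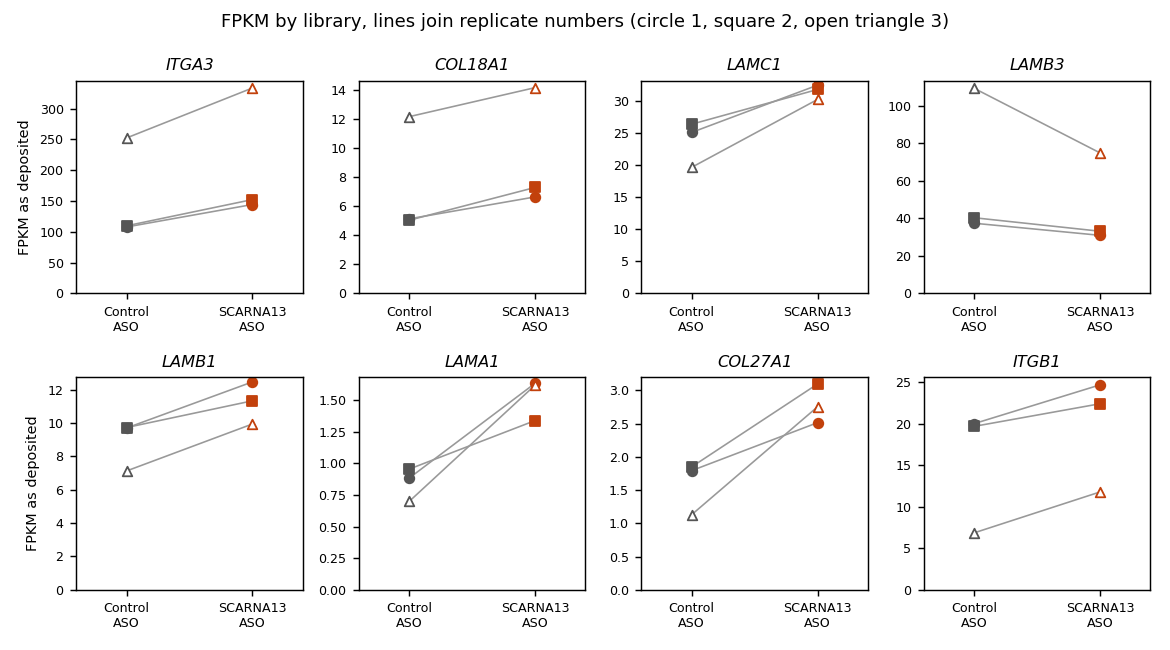
FPKM as deposited, from a base of 0, of 8 genes in each library; grey lines join libraries of the same replicate number. LAMC1, LAMB1, LAMA1 and COL27A1 have all SCARNA13 ASO libraries above all controls, while ITGA3, COL18A1, ITGB1 and LAMB3 move alike in each pair across overlapping groups.

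Other genes of matrix assembly and adhesion were read from the same fit. Of 85 further genes tested in 7 lists, 12 rose, 1 fell and 72 did not pass. Of all genes 5.21% were called, 3.06% higher and 2.15% lower. Neither this count nor those of the single lists were tested against these shares. With group only, or with the block but no GC correction, none of the 85 passed. All 13 calls were lost in the same fit without replicate 1 or replicate 2 of both groups (0 of 85 each). The list of basement membrane partners also holds a glypican and syndecans, and was chosen with earlier results of these data known. Of its genes tested, 5 of 9 rose, 0 fell and 4 did not pass, with a median of 0.40. Those 4, named beyond the rule, were PXDN (0.45 ± 0.14), SPARC (0.071 ± 0.053), NID1 (0.067 ± 0.062) and SDC4 (0.054 ± 0.047). HSPG2, the heparan sulphate proteoglycan perlecan, went from 15.2 ± 5.93 FPKM in controls up to 25.6 ± 10.8 FPKM as deposited (SD, n = 3). With block and GC correction HSPG2 rose 1.75-fold, NTN4, a laminin-binding netrin, 1.68-fold, the glypican GPC1 1.32-fold and agrin (AGRN) 1.29-fold. With group only on deposited values their log2 fold changes were 0.73, 0.74, 0.31 and 0.27. The fifth gene to rise in the corrected and blocked fit was the syndecan SDC1, at a log2 fold change of 0.48, named beyond the rule after its value was seen. Among collagen maturation genes 2 of 20 rose and 0 fell (median 0.086): PLOD2, a lysyl hydroxylase, rose 1.47-fold and P4HB, a subunit of prolyl hydroxylase, 1.21-fold.

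Of the integrin adaptors and focal adhesion genes, 2 of 27 rose and 0 fell (median 0.060). In the same fit 3.06% of all genes were called higher and 2.15% lower. The counts of this and the following short lists were not tested against those shares. RSU1, a partner of the ILK complex, rose 1.34-fold and TLN2, a talin, 1.48-fold, while PARVA stood at 0.28 ± 0.059 and zyxin (ZYX) at -0.23 ± 0.052 without passing. ILK itself, named beyond the rule after its value was seen, stood at -0.49 ± 0.12 without passing (limma adjusted p = 0.0713). Among other matrix receptors 1 of 8 rose, the syndecan SDC3 at 0.50 ± 0.055, and 0 fell (median -0.13, 3 of 8 estimates above 0). The hyaluronan receptor CD44 (-0.33 ± 0.061, limma adjusted p = 0.0504), BCAM (-0.23 ± 0.061) and DDR1 (-0.24 ± 0.067) had estimates below 0 and did not pass. Of other integrin ligands 1 of 9 rose, FN1 (fibronectin) at 0.79 ± 0.058, and 1 fell, CTGF at -0.57 ± 0.053. Of the hemidesmosome partners 1 of 3 rose, the cytolinker PLEC at 0.48 ± 0.061, and of the integrin partner membrane proteins 0 of 10 passed (median -0.042). CD151, the tetraspanin that binds alpha3beta1, stood at -0.034 ± 0.058 and belongs to both of these lists.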

How the data were processed

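Per the labels' protocols, RNA was taken from frozen cells with Trizol, and a TruSeq kit was used for the libraries. The deposited files give 1 value per gene and library, taken here as FPKM: the authors' headers name no unit, but each value times gene length was a whole multiple of 1 step per library for 100% of values (tolerance 0.01 reads), so reads were recovered. The step equals a median-of-ratios scaling, which assumes that most genes do not change. TopHat2 2.0.9, Bowtie2 2.0.6 and hg19 are named in the submitters' processing notes; the counting tool is not given in the sources used here. Positions are GRCh38: 97.6% of gene identifiers found in GENCODE 29 have the same start and end there, as do 65 of the 77 collagen, laminin and integrin genes (84.4%). Whether the libraries are separate cultures is not stated, and p-values then reflect only how these libraries vary, which may be technical.

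The main test was limma-trend (limma 3.58.1, R 4.3.3) on log2(FPKM + 0.5), mean FPKM at least 1, Benjamini-Hochberg adjusted over all genes; fold changes of low genes are understated on this scale. Replicate numbers, from the titles, were treated as pairs: same-numbered libraries deviated from their group means together (correlations 0.84, 0.78 and 0.91), and crossed pairs of replicates 1 and 2 at 0.81, so only replicate 3 is set apart by the values. GC correction subtracted a loess trend (span 0.5) on the GC content of the longest GENCODE 29 transcript. Genes named are the 3 most abundant of each chain family, those that passed in any of the 3 fits, the 4 each of collagens, laminins and integrins with the smallest p in the corrected and blocked fit, and up to 4 by that p per further list. Members, lists and fits were chosen with earlier results of these data known. The fits were also run on simulated reads. There both libraries of a replicate number shared the same expected profile, apart from the genes set to change. A GC difference within a pair was not simulated, so its correction was not tested. Alternatives covered pseudocount, filter, trend, limma-voom, scaling and libraries left out. The values of 1 expressed laminin gene and 1 marker gene are not reported here; both are kept in the counts.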

Additional observations from a re-analysis of the deposited data

How the results depend on the processing

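The count of collagens, laminins and integrins called, 0 with group only, was 4 with replicate block and GC correction, 4 with the block on replicates 1 and 2 alone and 5 with block and GC correction on replicates 1 and 2. It stayed 0 under the other alternatives, and the numbers over all genes were 526, 629 and 677 in those fits. With the block, leaving out replicate 1 or 2 gave 51 and 268 genes in all, and with GC correction as well, fits added after the data were seen, 19 and 7. The further matrix and adhesion genes numbered 13 (block and GC correction), 5 (block without replicate 2), 15 (block without replicate 3) and 15 (the same with GC correction), and 0 under the block alone, the block without replicate 1, and block and GC correction without replicate 1 or 2. The paired fit with the replicate block changed no call by itself.

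Of 18 named genes, 8 kept the sign of the estimate under every alternative run. Leaving out 1 library, log2 fold changes ran from -0.23 to 0.61 for COL6A2, -0.18 to 0.47 for COL4A2, -0.15 to 0.20 for COL5A2, -0.41 to 0.41 for ITGA5, -0.32 to 0.43 for ITGA6, -0.083 to 0.73 for ITGB1, -0.15 to 0.27 for ITGB4, -0.54 to 0.021 for ITGB2, -0.77 to 0.13 for LAMB3 and -0.40 to 0.44 for LAMB2. The sign of ITGA5, -0.023 with group only, turned to 0.032 (block and GC correction), 0.077 (limma-voom), 0.076 (scaled to total reads), 0.020 (block without replicate 3), and 0.028, 0.033 and 0.035 (block and GC correction without replicates 1, 2 and 3). LAMB2, at -0.021, turned to 0.046, 0.081, 0.078 and 0.058, and to 0.020, 0.071 and 0.047, under the same settings. With the block, COL5A2 stood at -0.039 without replicate 1 (-0.035 with GC correction), ITGA6 at -0.016 without replicate 3, and ITGB4 at -0.063 and -0.046 without replicates 1 and 2. The cause of these turns was not tested. Scaling to total reads moved the median of all genes from -0.025 to 0.057. Low depth limits ITGAV and ITGA4, at 35 and 47 reads in their lowest libraries.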

Other observations

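The name rule leaves out the integrin alpha chains called by letter. ITGAE, which pairs with ITGB7, averaged 2.56 ± 0.293 FPKM with Control ASO and 3.15 ± 0.158 FPKM with SCARNA13 ASO (SD, n = 3 each), while ITGB7 averaged 0.133 FPKM over the 6 libraries. ITGB2, the beta chain of leucocytes, was present at 3.46 FPKM, yet its alpha partners were near 0: ITGAL averaged 0.00497 FPKM, ITGAM 0.0469, ITGAX 0.00409 and ITGAD 0.0257. The antisense ITGB2-AS1, which overlaps ITGB2 exons, stood at 2.18, 1.69 and 5.80 FPKM in controls and 1.18, 1.24 and 2.56 FPKM after SCARNA13 ASO. The antisense estimate on the log2 scale, -0.62 ± 0.12 (SE, n = 3; limma adjusted p = 0.0527 with block and GC correction), did not pass, though each pair was lower. ITGBL1, a secreted integrin-like protein, averaged 0.121 FPKM, and ITGB1BP1, which binds the tail of ITGB1, 6.02 FPKM.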
